A study of Homo sapiens with 21 samples.

Results

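PELI1 encodes an E3 ubiquitin ligase of the Pellino family that acts downstream of Toll-like receptors and the interleukin-1 receptor. The deposited contact counts of its locus were 1 of 53 loci in the series, taken as every library baited at this locus: 4 libraries baited at a putative PELI1 enhancer and 3 libraries baited at a CTCF-binding site (CBS) that marks a domain boundary. All libraries came from BLaER1, an established line of leukaemic human B cells in which 17β-estradiol activates C/EBPα, a myeloid transcription factor, so that together with interleukin-3 and CSF-1 the cells become induced macrophages (iMacs). Tri-C, a multi-way chromosome conformation capture assay, had been run at 0, 24 and 96 h of conversion with both baits, and at 96 h also with the enhancer bait in the BLaER subclone CTCF-AID (Auxin Inducible Degron) kept in auxin throughout conversion, so that CTCF was depleted. The 96 h library set against it was labelled BLaER with no degron, so the subclone and the auxin cannot be told apart from the loss of CTCF. Each group had 3 biological replicates, which the deposited counts hold pooled, and contact counts give no expression level with which to check the cell state.

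Toll-like receptors signal through adaptor proteins to kinases and to NF-κB, and Pellino proteins attach ubiquitin chains to kinases of that route, such as IRAK1. Enhancers act on promoters by coming close to them in the nucleus. CTCF, bound in an oriented way, halts the loop-extruding cohesin ring, and a pair of convergent CTCF sites often frames a domain within which contacts are frequent. In Tri-C a read that holds the bait and several further fragments (reporters) records a simultaneous contact, so that a pair of reporters seen with the bait is a 3-way contact.

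PELI1 (ENSG00000197329.12) lies on the minus strand of chromosome 2 at 64092652 to 64144420 in hg38. The 3 anchors stand in the order promoter, enhancer, boundary site: the enhancer bait was 129 kb from the PELI1 start, and the boundary bait lay 57.1 kb further on, 186 kb from the start. At the 51 loci retained by the study the medians were 66.7 kb from enhancer to promoter and 140.3 kb from enhancer to boundary site, so that PELI1 combined a distant promoter with a close boundary.

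The baited fragments, the promoter and a CTCF site near the boundary bait are printed because the counts below are contacts at or near them; capitals mark matches to the motifs searched on both strands, which were TTGCNNAA for C/EBP, AGGAAGT for PU.1 and for CTCF a core of CC, 3 free bases, AG, 2 free bases and GGC. The enhancer fragment is the NlaIII fragment at chr2:64273632-64273860 (plus strand, 229 bases), which overlaps an exon of the lncRNA ENSG00000288932.
Enhancer bait: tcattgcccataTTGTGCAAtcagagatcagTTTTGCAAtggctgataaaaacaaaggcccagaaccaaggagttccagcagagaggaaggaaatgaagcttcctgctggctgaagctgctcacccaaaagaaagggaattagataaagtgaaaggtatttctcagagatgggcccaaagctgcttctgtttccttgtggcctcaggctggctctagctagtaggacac
The boundary fragment is at chr2:64330740-64330916 (plus strand, 177 bases), in an intron of the lncRNA ENSG00000238012.
Boundary bait: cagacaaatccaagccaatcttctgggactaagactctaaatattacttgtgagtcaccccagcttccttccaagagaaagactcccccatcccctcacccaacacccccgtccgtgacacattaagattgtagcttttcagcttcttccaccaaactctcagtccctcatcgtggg
The CTCF site listed 54.4 kb from the enhancer bait held the only CTCF core match among the 7 CTCF sites the study listed around this promoter, at chr2:64328111-64328138 (minus strand, intergenic), and is shown for that match. The site listed closest to the boundary bait, 57.3 kb from the enhancer bait, held none.
CTCF site at 54.4 kb: gatatgccCCAGCAGAGGGCaatgcccg
The PELI1 promoter of RefSeq (GRCh38.p14) is at chr2:64144371-64144670 (minus strand, 300 bases) and takes in the start of PELI1 and an intron of the lncRNA ENSG00000225889 on the other strand.
PELI1 promoter: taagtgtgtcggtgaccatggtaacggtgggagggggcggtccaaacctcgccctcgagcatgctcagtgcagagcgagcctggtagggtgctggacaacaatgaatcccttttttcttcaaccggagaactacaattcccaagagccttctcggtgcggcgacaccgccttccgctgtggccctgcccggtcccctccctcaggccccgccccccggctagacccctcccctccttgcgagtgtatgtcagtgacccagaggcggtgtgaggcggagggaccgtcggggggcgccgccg
The enhancer fragment held 2 C/EBP matches, both on the minus strand. Among 8733 tiles of 229 bases within 1 Mb, 12.2% held at least 1 such match and 0.847% held at least 2. The boundary fragment and the promoter held no match to any of the 3 motifs. A CTCF core match occurred in 1.97% of 6666 tiles of 300 bases, the length of the window searched at each listed CTCF site. A match is a description of letters and not a binding site.

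The enhancer libraries held 47445, 42748 and 40526 counts within 1 Mb of the bait at 0, 24 and 96 h, with 45565 in the CTCF-depleted library, and the CBS libraries held 34834, 43666 and 37550. Between 25.8% and 27.2% of the counts in the 3 undepleted enhancer libraries were distant, with both reporters over 10 kb from the bait and from each other. In the CTCF-depleted library 16.3% were distant, and a fragment pair was seen 2.09 times on average, against 1.60 times at 96 h. The distant share fell in that library at all 51 loci (100% of loci tested), so the main values for it are given also relative to distant counts. With 1 pooled library per condition, every interval (95%, exact Clopper-Pearson or exact conditional) and p (two-sided exact conditional test, Benjamini-Hochberg adjustment over loci or windows) covers counting error only and compares libraries. Pairs from 1 read and PCR copies are not independent, so the intervals are too narrow.

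Distant 3-way contacts of the enhancer with the PELI1 promoter made up a larger share at each later time. Distant pairs that held the bait and the 12 kb window on the PELI1 start (E-P-X) numbered 219 at 0 h, 379 at 24 h and 619 at 96 h, which was 0.462% (0.403 to 0.527), 0.887% (0.800 to 0.980) and 1.53% (1.41 to 1.65) of the counts within 1 Mb. The 3 intervals did not overlap. On the scale of log2 odds ratios, E-P-X rose by 0.95 (0.70 to 1.19) at 24 h over 0 h (adjusted p = 8.75e-15, exact test), by 1.74 (1.52 to 1.97) at 96 h over 0 h (adjusted p = 2.72e-60, exact test) and by 0.79 (0.61 to 0.98) at 96 h over 24 h (adjusted p = 3.58e-17, exact test). Rises were frequent among loci: of 51 tested, 54.9% rose at 24 h over 0 h, 68.6% at 96 h over 0 h and 60.8% at 96 h over 24 h. The PELI1 value stood at rank 4, rank 7 and rank 9 of 51 in these comparisons. The other 35 loci of genes active in iMacs had medians of 0.39, 0.99 and 0.51, and the 15 loci of B cell genes had medians of -0.73, -0.76 and -0.17.

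PELI1 started low and remained below the typical iMac locus in level. Its E-P-X share at 0 h ranked 31 of 36 iMac loci, where the other 35 had a median of 1.06%. At 96 h it ranked 26 of 36, against a median of 2.14% in the other 35. These shares depend on the distance between bait and promoter, which differs between loci, so the ranks are a description.

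Distant 3-way contacts of the enhancer with the boundary site did not follow. E-C-X, the same count for the 12 kb window on the boundary bait, was 456 at 0 h, 388 at 24 h and 423 at 96 h, or 0.961% (0.875 to 1.05), 0.908% (0.820 to 1.00) and 1.04% (0.947 to 1.15). All 3 intervals overlapped. The log2 odds ratios were -0.08 (-0.28 to 0.12) at 24 h over 0 h, 0.12 (-0.07 to 0.31) at 96 h over 0 h and 0.20 (0.00 to 0.41) at 96 h over 24 h, with adjusted p of 0.546, 0.265 and 0.0621 by the exact test. E-C-X rose at 45.1%, 60.8% and 58.8% of the 51 loci in these comparisons. The 96 h over 24 h ratio was called in some alternatives, with 0.33 in 7.5 kb windows.

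**Figure D1:**
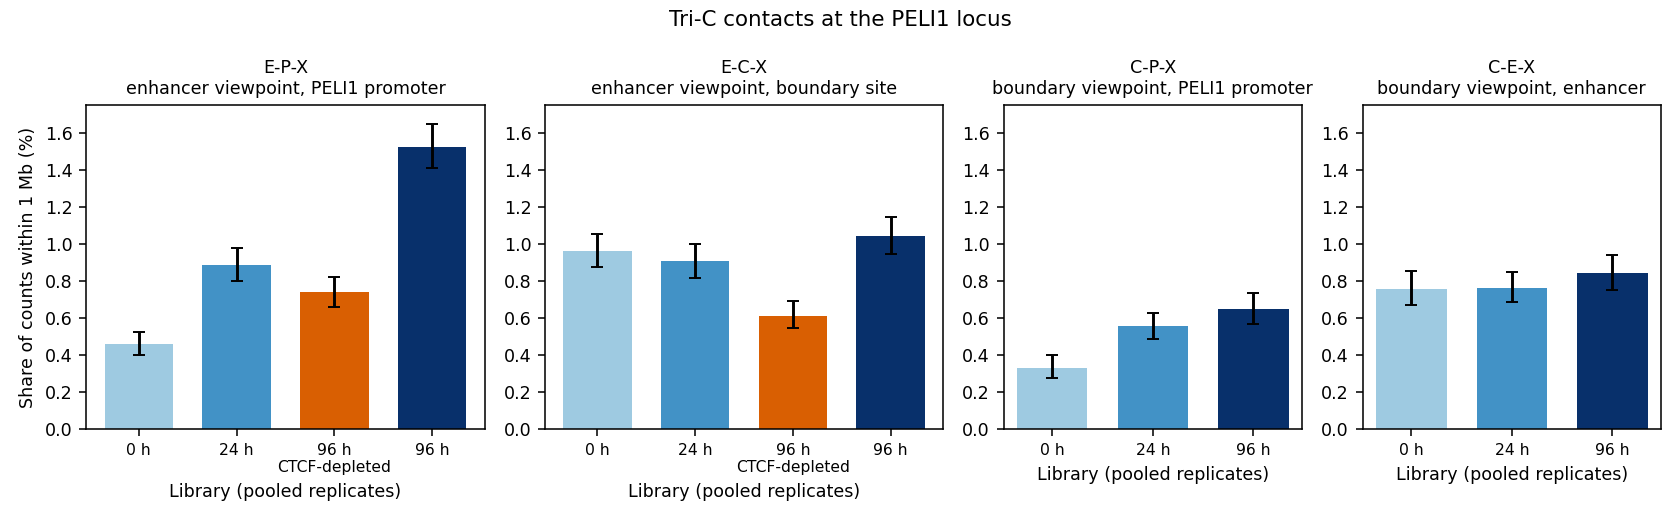
Share of counts within 1 Mb (%, y axis) in each pooled library (x axis) for the 4 contact classes of the PELI1 locus; bars are shares and whiskers are exact 95% intervals of counting error. E-P-X stood at 0.462%, 0.887% and 1.53% over the 3 times and at 0.740% in the CTCF-depleted library, while E-C-X stayed between 0.908% and 1.04% over the 3 times.

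From the boundary side the promoter contact rose early. C-P-X, the pairs that held the CBS bait and the PELI1 promoter window, numbered 116 at 0 h, 243 at 24 h and 244 at 96 h, or 0.333% (0.275 to 0.399), 0.556% (0.489 to 0.631) and 0.650% (0.571 to 0.736). The 0 h library lay below both later ones, whose intervals overlapped. C-P-X rose by 0.74 (0.42 to 1.08) at 24 h over 0 h (adjusted p = 1.84e-05, exact test) and by 0.97 (0.64 to 1.30) at 96 h over 0 h (adjusted p = 2.73e-09, exact test). The ratio at 96 h over 24 h was 0.22 (-0.04 to 0.49; adjusted p = 0.127, exact test) and passed the threshold in 7.5 kb and in 30 kb windows, at 0.45 and 0.39. Among the 48 loci with enough counts, 41.7%, 66.7% and 54.2% rose in these comparisons. C-E-X, the contact of the CBS bait with the enhancer window, was 264, 334 and 317 counts at 0, 24 and 96 h, with log2 odds ratios of 0.01, 0.16 and 0.14 at 24 h over 0 h, 96 h over 0 h and 96 h over 24 h (adjusted p = 0.981, 0.225 and 0.272, exact test). C-E-X rose at 27.5%, 54.9% and 56.9% of 51 loci in these comparisons.

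Reads that joined enhancer, promoter and boundary site were too few to test in 12 kb windows. E-P-C counts were 4 at 0 h, 0 at 24 h and 9 at 96 h, and 10 in the CTCF-depleted library, all below the minimum of 20 counts over a comparison. A count of 0 at 24 h allows a share of up to 0.00702%, taken as 3 counts of the total. From the boundary bait the same triple had 0, 3 and 7 counts. In windows of 30 kb the triple had 36, 45 and 67 counts at 0, 24 and 96 h from the enhancer, with 33 in the CTCF-depleted library, and 8, 16 and 37 from the boundary. Ratios in those windows are given below with the other alternatives.

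The gain was not restricted to the start of the gene. In a 12 kb grid the window with the highest 96 h over 0 h ratio of 156 measured lay 130 to 142 kb from the bait, just inside the 5′ end of PELI1, with 650 counts at 96 h and 239 at 0 h, a log2 odds ratio of 1.68 (1.47 to 1.91). This window overlaps the promoter window, whose own ratio was 1.74, so the 2 share counts. Of the grid windows, 10.9% rose and 46.8% fell in that comparison, so that a rise was the less frequent call. The gene body outside the promoter window had 892, 1058 and 1666 counts at 0, 24 and 96 h, or 1.88% (1.76 to 2.01), 2.47% (2.33 to 2.63) and 4.11% (3.92 to 4.31). In the CTCF-depleted library it had 794 counts, or 1.74% (1.62 to 1.87). Relative to distant counts the gene body made up 7.12%, 9.60% and 15.1% at 0, 24 and 96 h. On that scale it made up 10.7% (10.02 to 11.4) in the CTCF-depleted library, against 15.1% (14.4 to 15.8) at 96 h.

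The study listed enhancers, CTCF sites and promoters that contact the PELI1 promoter in these cells by a pairwise assay, and 17 of them lay far enough from the enhancer bait to be measured, in 13 windows of 6 kb that join listed elements lying close together. The list was chosen on the same cells, so its direction is not independent evidence. All 5 windows of listed enhancers on the PELI1 side, which hold 8 listed enhancers, rose at 96 h over 0 h, beside 12.4% of 274 grid windows of 6 kb that rose. That grid reaches 1 Mb to both sides, and the rise was not particular to listed enhancers. In the 12 kb windows centred at -174 and -114 kb (PELI1 side), which hold no listed element, shares were also higher. They were 0.464% and 0.584% at 0 h and 1.01% and 1.09% at 96 h. The window 81.7 kb from the bait, which joins 2 listed enhancers, had 163, 278 and 395 counts at 0, 24 and 96 h and the largest ratio of the 5, 1.51 (1.25 to 1.79) at 96 h over 0 h. The windows at 69.4, 61.3 and 53.3 kb, of which that at 61.3 kb joins 3 listed enhancers, had ratios of 1.21, 1.25 and 0.91. The enhancer at 157.8 kb, inside the PELI1 gene body 28.5 kb downstream of its start, had 117, 118 and 185 counts, a ratio of 0.89 (0.55 to 1.24) at 96 h over 0 h and 0.73 (0.39 to 1.07) at 96 h over 24 h. In that last comparison all 5 rose, beside 13.3% of grid windows. The 4 nearer windows rose already at 24 h over 0 h, by 0.46 to 0.92, and 9.09% of grid windows rose in that comparison. With counts divided by 3, 2 of the 13 windows were called at 24 h over 0 h and 2 at 96 h over 24 h, against 6 and 7 with all counts, while 7 were called at 96 h over 0 h either way. A listed enhancer on the other side of the bait, 370.8 kb away beyond the boundary, had 44, 51 and 48 counts and was not called at any time.

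CTCF sites differed by side. The site 223.8 kb from the bait, which lies 94.5 kb past the PELI1 promoter and is called the far CTCF site here, had 120, 175 and 205 counts at 0, 24 and 96 h, a rise of 0.70 (0.35 to 1.04) at 24 h over 0 h and of 1.00 (0.67 to 1.34) at 96 h over 0 h. The site 45.3 kb away on the PELI1 side had 387, 479 and 577 counts and rose by 0.81 (0.62 to 1.00) at 96 h over 0 h. The windows 24.6, 38.8 and 55.8 kb away on the boundary side, the last of which joins 2 listed sites, had ratios of -0.13, -0.09 and 0.19 at 96 h over 0 h and none was called.

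**Figure D2:**
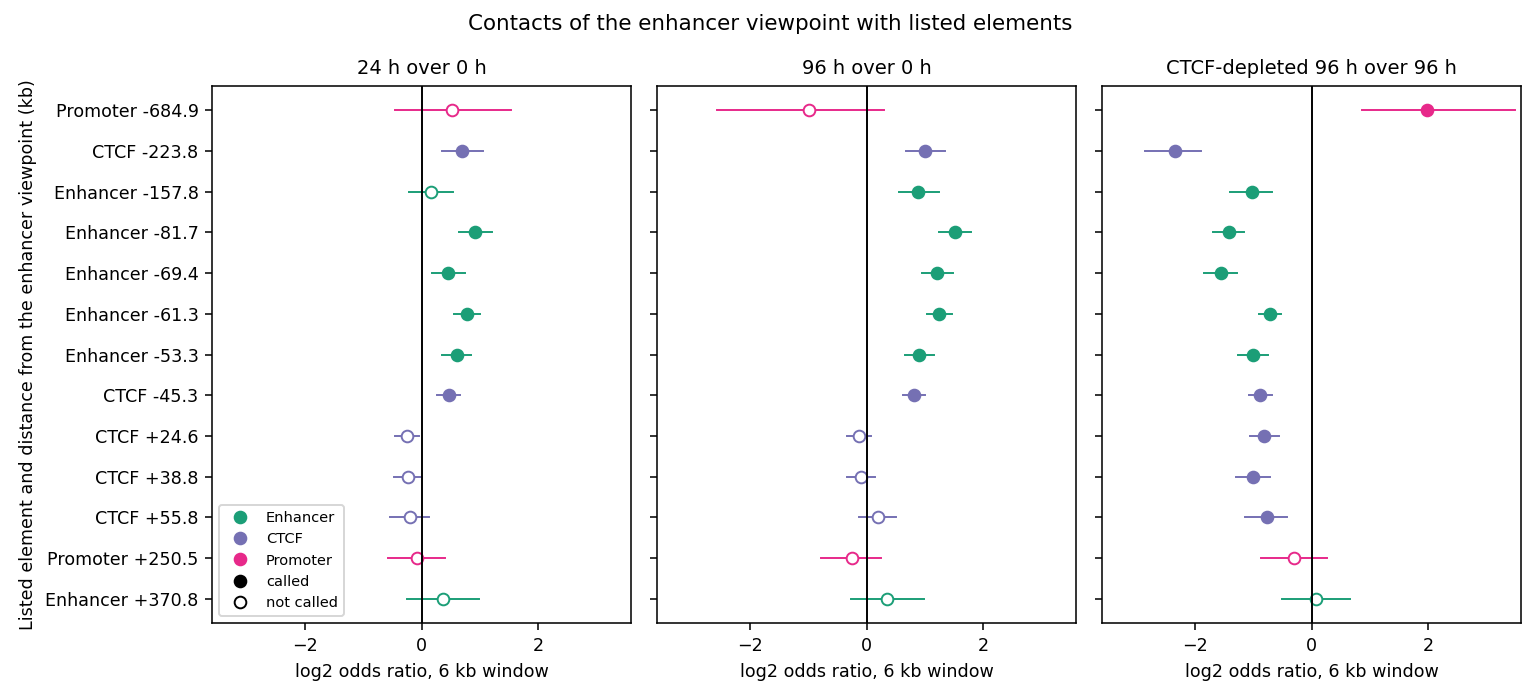
Log2 odds ratio of contacts of the enhancer bait with each of 13 windows of 6 kb on listed elements (x axis) against the kind of element and its distance from the bait in kb (y axis, negative on the PELI1 side), in 3 comparisons; lines are exact 95% intervals and filled points passed an adjusted p of 0.05. The 5 windows of listed enhancers on the PELI1 side and both CTCF sites there lie right of 0 at 96 h over 0 h and left of 0 after CTCF depletion.

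The boundary bait and the far CTCF site formed the strongest gain among the listed sites seen from the boundary. These sites come from a second list of the study, of elements that contact the boundary CTCF site of this locus by the pairwise assay. They are not a list of contacts of the PELI1 promoter. This list too was chosen on the same cells, so its direction is not independent evidence. The far site had 311, 746 and 649 counts at 0, 24 and 96 h from the CBS bait, 280.9 kb away. This was a rise of 0.95 (0.76 to 1.14; adjusted p = 1.63e-21, exact test) at 24 h over 0 h and of 0.96 (0.77 to 1.16; adjusted p = 2.27e-21, exact test) at 96 h over 0 h, and the ratio at 96 h over 24 h was 0.02 (-0.14 to 0.17). The 6 kb grid windows of this bait rose in 10.2% and 17.1% of cases at 24 h and at 96 h over 0 h. Of the 19 windows of listed elements measured from the boundary (21 elements), 2 rose at 24 h over 0 h and 4 rose at 96 h over 0 h. Both counts were near the share of grid windows that rose, so they are not a result about listed elements. Besides the far site, the windows that rose at 96 h over 0 h were CTCF sites 157.3, 225.0 and 231.5 kb beyond the boundary, away from PELI1. Their ratios were 0.63, 0.63 and 0.32. An enhancer and a CTCF site 534.0 and 534.9 kb beyond it fell at 96 h over 0 h, with ratios of -0.49 and -0.43, beside 6.32% of grid windows. Their windows overlap, so these are not separate findings. With counts divided by 3, 1 window was called at 24 h over 0 h and 2 at 96 h over 0 h.

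The stretch of 280.9 kb between the far CTCF site and the boundary bait took up a growing part of the enhancer's distant contacts. This stretch was defined after the values were seen. Both reporters lay inside it in 25.8% (25.1 to 26.6) of distant counts at 0 h, 34.0% (33.1 to 34.9) at 24 h and 48.9% (48.0 to 49.9) at 96 h. In the CTCF-depleted library the share was 32.1% (31.0 to 33.2), between the values at 0 h and 24 h. Both reporters lay outside it in 33.7%, 27.9% and 17.7% of distant counts over the 3 times, and in 30.3% after depletion. From the CBS bait, which sits at the edge, the inside share was 9.73%, 10.3% and 13.2%.

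**Figure D3:**
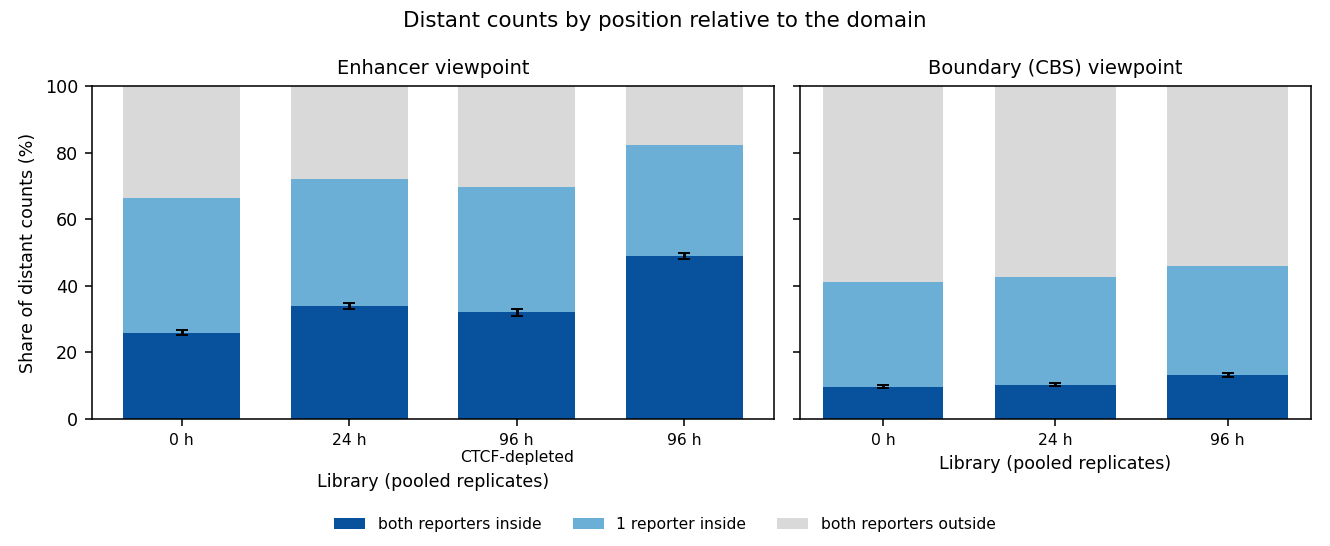
Share of distant counts (%, y axis) with both, 1 or neither reporter between the far CTCF site and the boundary bait, in each pooled library (x axis); whiskers are exact 95% intervals of the inside share. The inside share of the enhancer bait was 25.8%, 34.0% and 48.9% at 0, 24 and 96 h and 32.1% in the CTCF-depleted library.

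Reporter pairs moved to the PELI1 side in the same way. Both reporters lay on the PELI1 side of the enhancer in 29.6%, 34.0% and 40.4% of distant counts at 0, 24 and 96 h, and both on the boundary side in 36.4%, 29.6% and 22.4%. Pairs with reporters on opposite sides made up 34.0%, 36.4% and 37.2%. Boundary crossing, the share of boundary-side reporters that lay beyond the boundary window and not before it, was 72.9% (72.1 to 73.6) at 0 h, 73.8% (73.0 to 74.7) at 24 h and 66.7% (65.7 to 67.7) at 96 h. It fell by 0.42 (log2 odds ratio -0.42, -0.47 to -0.37) at 96 h over 0 h, beside 72.5% of 51 loci that fell. At 24 h over 0 h it rose by 0.07 (0.03 to 0.12), beside 41.2% of loci that rose, and with counts divided by 3 this was not called. At 96 h over 24 h it fell by 0.49 (log2 odds ratio -0.49, -0.54 to -0.44), beside 72.5% of loci that fell. PELI1 ranked 8 of 51 at 96 h in this share, and the other 35 iMac loci had a median of 31.3%. This share depends on the distance between bait and boundary, which was 57.1 kb here against a median of 140.3 kb over loci. The rank is therefore a description. Boundary crossing counts reporters and not pairs, so both reporters of a pair can enter. Its intervals and p are too narrow for that reason also.

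**Figure D4:**
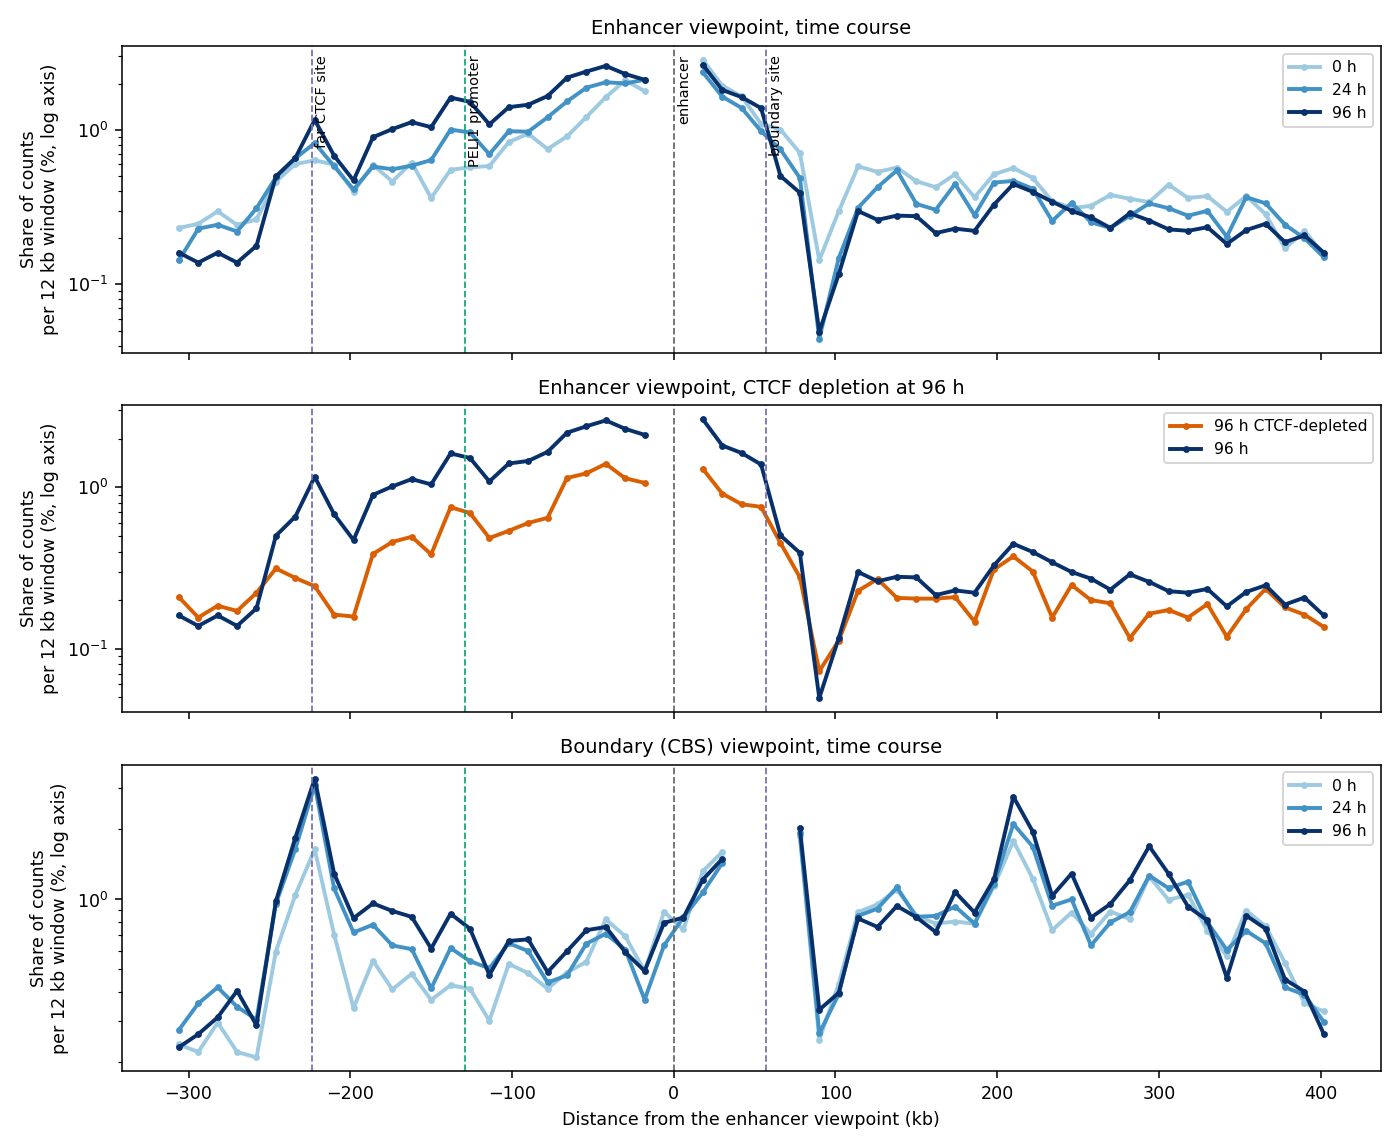
Share of counts per 12 kb window (%, log y axis) against distance from the enhancer bait (kb, x axis; negative toward PELI1) for the enhancer bait over time, for the enhancer bait with and without CTCF depletion, and for the CBS bait over time; windows next to the bait are left out and dashed lines mark the far CTCF site, the PELI1 promoter, the enhancer and the boundary site. The 96 h line lies above 0 h from the far CTCF site to the bait and below it in most windows beyond the boundary, and the peak of the CBS bait at the far CTCF site is higher at 24 h and 96 h (746 and 649 counts in 6 kb) than at 0 h (311 counts).

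Simultaneous contacts of the enhancer with the promoter and with further listed enhancers became more frequent. Pairs of the PELI1 promoter window with any of the 5 enhancer windows on the PELI1 side numbered 15, 42 and 80 at 0, 24 and 96 h, or 6.85%, 11.1% and 12.9% of E-P-X counts. As log2 odds ratios of the counts within 1 Mb these were 1.61 (0.76 to 2.59) at 24 h over 0 h and 2.61 (1.84 to 3.55) at 96 h over 0 h. Relative to distant counts the pairs rose by 2.57 at 96 h over 0 h. On that scale the 5 enhancer windows rose by 0.85 to 1.49, whatever their partner, and the promoter window by 1.74. Whether the pairs rose beyond the rise of both windows was not tested. The promoter paired with the CTCF site 45.3 kb from the bait in 3, 14 and 27 counts, and with the intragenic enhancer in 0, 2 and 14 counts. Pairs with all 5 windows of listed CTCF sites numbered 19, 28 and 55, or 8.68%, 7.39% and 8.89% of E-P-X counts. In the CTCF-depleted library the enhancer pairs numbered 25, against 80 at 96 h, a log2 odds ratio of -1.83 (-2.56 to -1.19), or -1.09 (-1.82 to -0.45) relative to distant counts.

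**Figure D5:**
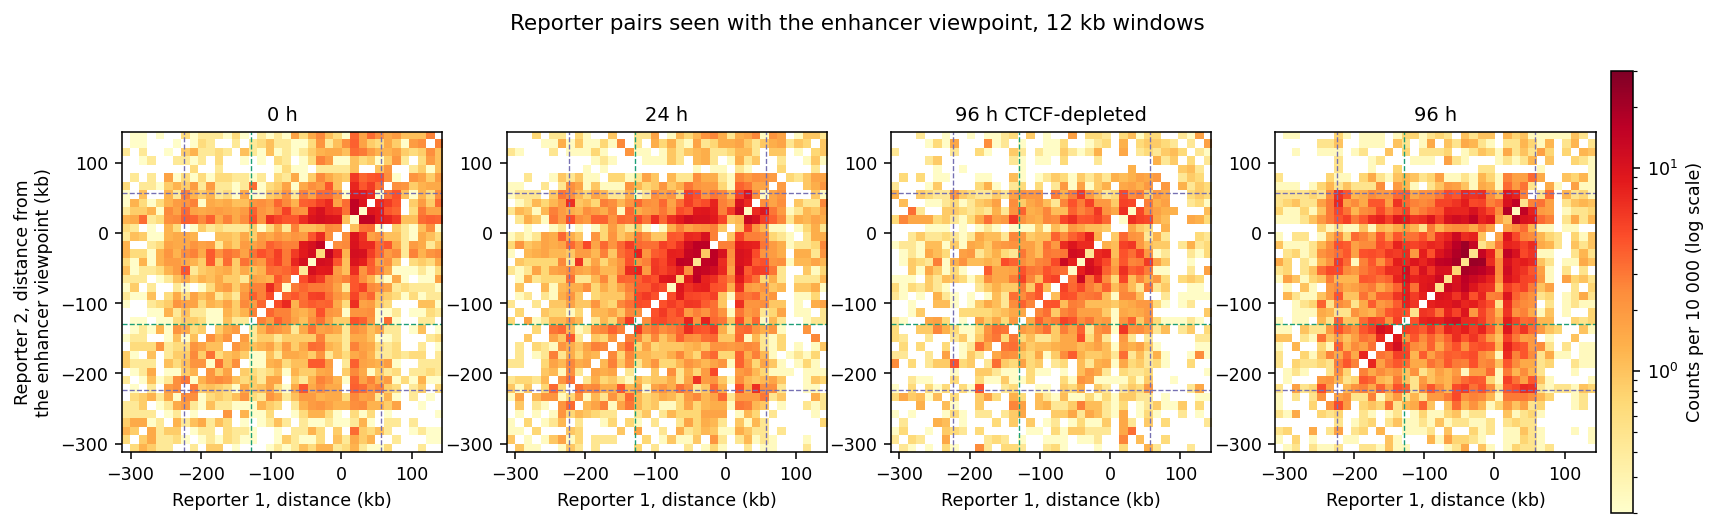
Counts per 10000 counts within 1 Mb (colour, log scale) for each pair of 12 kb windows seen together with the enhancer bait in the 4 enhancer libraries; both axes give distance from the bait in kb (negative toward PELI1), white marks pairs with no count or pairs left out as too close, and dashed lines mark the far CTCF site, the PELI1 promoter and the boundary site. Counts between the far CTCF site and the boundary made up 32.1% of distant counts in the CTCF-depleted library, against 48.9% at 96 h.

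The enhancer contacted the promoter less often in the CTCF-depleted library. E-P-X had 337 counts in the CTCF-depleted library and 619 at 96 h, or 0.740% (0.663 to 0.823) and 1.53% (1.41 to 1.65), a log2 odds ratio of -1.06 (-1.25 to -0.86; adjusted p = 2.4e-28, exact test). At 92.2% of 51 loci E-P-X fell, and PELI1 was close to the median of the other 35 iMac loci, -1.07. Relative to distant counts the PELI1 ratio was -0.32 (-0.51 to -0.13). E-C-X had 280 counts in the CTCF-depleted library and 423 at 96 h, a ratio of -0.77 (-0.99 to -0.55; adjusted p = 3.28e-12, exact test), beside 92.2% of loci that fell, and relative to distant counts the ratio was -0.02 and was not called. Boundary crossing was 76.5% (75.5 to 77.5) in the CTCF-depleted library and 66.7% (65.7 to 67.7) at 96 h, a ratio of 0.70 (0.64 to 0.75; adjusted p = 6.42e-138, exact test), beside 96.1% of loci that rose. The lower distant share and higher count per fragment pair of this library moved with these values, and their part in them was not tested.

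The far CTCF site had the lowest ratio of the 13 windows of listed elements. It had 45 counts in the CTCF-depleted library and 205 at 96 h, a log2 odds ratio of -2.35 (-2.86 to -1.89; adjusted p = 1.52e-28, exact test). Relative to distant counts its ratio was -1.62 (-2.13 to -1.16), an interval that lay below that of the PELI1 promoter window. Of the 13 windows 10 fell, namely the 5 CTCF windows and the 5 enhancer windows on the PELI1 side, beside 28.5% of 249 grid windows. The 1 window that rose was a promoter 684.9 kb away, with 33 counts in the CTCF-depleted library and 7 at 96 h, beside 4.82% of grid windows. Relative to distant counts the intervals of the far CTCF site and of the enhancer windows 81.7, 69.4 and 53.3 kb from the bait lay below 0. Those enhancer windows had ratios of -0.68, -0.83 and -0.26. No share of grid windows was computed on that scale and the intervals are not adjusted, so these values are a description. The enhancer windows at 157.8 and 61.3 kb, at -0.29 and 0.04, and the CTCF site at 45.3 kb, at -0.13, had intervals that held 0. The CTCF windows on the boundary side had ratios of -0.06, -0.26 and -0.03 on that scale, with intervals that also held 0. The listed enhancer 370.8 kb away beyond the boundary, with 57 counts in the CTCF-depleted library and 48 at 96 h, lay above 0 at 0.82 (0.25 to 1.41). The listed promoter 684.9 kb away also lay above 0, at 2.74, and the interval of that at 250.5 kb, with 0.45, held 0.

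Promoters of the 11 neighbouring protein-coding genes with enough counts were called in either direction, depending on bait and time. At 96 h over 0 h none rose and 2, LGALSL and WDPCP, fell from the enhancer bait, in 12 kb windows of which 10.9% rose and 46.8% fell over the grid. LGALSL, a galectin-like gene 180.4 kb away beyond the boundary, had 172, 155 and 76 counts at 0, 24 and 96 h and fell by 0.95 (log2 odds ratio -0.95, -1.36 to -0.56) at 96 h over 0 h. From the CBS bait, 123.3 kb from it, LGALSL had 275, 360 and 371 counts and rose by 0.33 (0.10 to 0.56) at 96 h over 0 h, beside 19.7% of 12 kb grid windows of that bait, and by 0.26 (0.05 to 0.48) at 96 h over 24 h, beside 13.2%. VPS54, a subunit of the GARP tethering complex and the nearest neighbour past PELI1 at 254.3 kb, had 132, 130 and 103 counts from the enhancer bait and was not called at any time, whereas from the CBS bait it had 83, 182 and 158 counts and rose by 0.80 (0.43 to 1.20) at 24 h over 0 h and by 0.82 (0.43 to 1.22) at 96 h over 0 h, where 18.7% of grid windows rose at 24 h. At 24 h over 0 h, 5 neighbours rose from the enhancer bait, beside 10.6% of grid windows. They were UGP2 (UDP-glucose pyrophosphorylase, 0.69), SERTAD2 (a transcriptional coregulator, 0.59), CEP68 (a centrosomal protein, 0.90), RAB1A (a GTPase of transport from the endoplasmic reticulum, 1.19) and ACTR2 (a subunit of the actin-branching Arp2/3 complex, 0.80), and none of the 5 was called at 96 h over 0 h. At 96 h over 24 h, 4 neighbours (LGALSL, WDPCP, MDH1 and CEP68) fell and none rose from the enhancer bait, beside 29.3% of grid windows that fell. The windows of WDPCP and MDH1 overlap, so their falls are not separate findings. AFTPH, a clathrin-associated trafficking protein, had 168, 150 and 123 counts from the enhancer bait and was not called, whereas from the CBS bait it had 316, 418 and 450 counts and rose by 0.41 (0.20 to 0.62) at 96 h over 0 h. SLC1A4, a neutral amino acid transporter, had 66, 52 and 63 counts from the enhancer bait and was not called over time, whereas from the CBS bait it had 96, 102 and 65 counts and fell at 96 h over 0 h (log2 odds ratio -0.67, -1.15 to -0.20), beside 13.6% of grid windows that fell.

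In the CTCF-depleted library the distant promoters of WDPCP, a ciliary effector of planar cell polarity, and MDH1, the cytosolic malate dehydrogenase, gained. MDH1 had 37 counts in the CTCF-depleted library and 14 at 96 h, a log2 odds ratio of 1.20 (0.31 to 2.24; adjusted p = 0.0149, exact test). WDPCP had 36 counts in the CTCF-depleted library and 14 at 96 h, in a window that overlaps that of MDH1, so these are not separate findings. Both lie 685 kb from the bait, on the far side of PELI1. The listed promoter 684.9 kb away, which rose above, lies within both windows and is the same site. Among grid windows of 12 kb, 7.04% rose and 31% fell. SLC1A4 had 45 counts in the CTCF-depleted library and 63 at 96 h, a fall that was called against all counts (-0.65) but not relative to distant counts (0.09, -0.50 to 0.66). On that scale MDH1 and WDPCP had 1.95 and 1.91, and the intervals of UGP2, VPS54, AFTPH, SERTAD2 and CEP68 also lay above 0, at 0.68, 0.77, 0.46, 0.49 and 1.22. Over all 25 windows of listed elements and promoters, 9 intervals lay above 0 and 5 below. Some of these windows overlap, the intervals are not adjusted, and no share of grid windows was computed on that scale. The counts are therefore only a description.

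By the 3 log2 ratios of E-P-X (24 h over 0 h, 96 h over 24 h, CTCF-depleted over 96 h), the loci nearest to PELI1 of the other 50 were CITED2, KDM7A and MXD1, with Euclidean distances of 0.323, 0.380 and 0.429 against a median of 0.996. All 3 are iMac loci. CITED2, a partner of the CBP and p300 coactivators, had ratios of 0.90, 0.98 and -1.32. KDM7A, a histone demethylase, had ratios of 0.82, 0.54 and -0.81. MXD1, a dimerization partner of MAX, had ratios of 0.52, 0.77 and -0.999. PELI1 itself had 0.95, 0.79 and -1.06. The likeness rests on 4 libraries shared by all loci and says nothing of shared control.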

How the data were processed

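The authors digested fixed BLaER1 chromatin with NlaIII, enriched ligation products with capture oligonucleotides, aligned reads to hg38 with CapCruncher in capture mode and merged the replicates. The deposited files give, for each pair of reporter fragments, the number of reads with the bait that held both (counts, not normalized). Replicates could not be separated. Fragment coordinates were checked against the genome: all 141340 fragments had the NlaIII site on both ends. The total was the number of counts whose reporters both lay within 1 Mb of the bait; pairs with both reporters over 10 kb from the bait and from each other were distant. Promoters and both baits had 12 kb windows and listed elements 6 kb windows, set against grids of the same width. Libraries were compared by an exact conditional binomial test (SciPy 1.17.1), with log2 odds ratios (pseudo-count 0.5), Benjamini-Hochberg adjustment over the loci or windows with at least 20 counts and a threshold of 0.05. The test was tried on simulated counts. Named genes were PELI1, neighbours with at least 20 counts and the 3 loci nearest in E-P-X ratios. The members, lists and tests were chosen with earlier results of these data known. Alternatives were other windows, exclusions and totals, pairs counted once, counts divided by 3, and neighbouring fragments left out. Of the loci, 2 that the study excluded were not analysed. Values relative to distant counts for windows and the gene body were added after seeing the data.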

Additional observations from a re-analysis of the deposited data

Results flagged for a closer look

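The LGALSL promoter window was called in opposite directions from the 2 baits. From the enhancer bait its log2 odds ratio was -0.95 at 96 h over 0 h and -0.95 at 96 h over 24 h. From the CBS bait it was 0.33 at 96 h over 0 h and 0.26 at 96 h over 24 h. The difference between the baits was not tested, and each value rests on 1 pooled library per condition.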

How the results depend on the processing

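No paired analysis was possible because the deposited counts pool the replicates of each group. Of 11 contact-class results that passed the threshold, 9 kept direction and call in every alternative run. E-P-X kept both in all 32 alternative values, with ranges of 0.74 to 1.09 at 24 h over 0 h, 1.42 to 1.80 at 96 h over 0 h, 0.54 to 0.83 at 96 h over 24 h and -1.16 to -0.32 after CTCF depletion. Counts divided by 3 lost the rise of boundary crossing at 24 h over 0 h (0.0726). The divisor is a fixed, rough allowance for shared reads, whose true extent was not measured. Relative to distant counts the fall of E-C-X after CTCF depletion was lost (-0.0209). The cause was not tested. In 30 kb windows E-C-X was called at 24 h over 0 h (-0.27) and at 96 h over 24 h (0.17), and its ratio at 96 h over 0 h turned to -0.0934. E-C-X at 96 h over 24 h was also called in 7.5 kb windows (0.33) and with each pair counted once (0.34), and at 24 h over 0 h it turned to 0.0156 with an exclusion of 20 kb. C-P-X at 96 h over 24 h was called in 7.5 kb (0.45) and 30 kb (0.39) windows. C-E-X at 24 h over 0 h turned to -0.30 in 30 kb windows, where it was called, to -0.11 relative to distant counts, to -0.0658 with each pair counted once and to -0.0517 without neighbouring fragments. C-E-X at 96 h over 0 h turned to -0.0758 in 30 kb windows and to -0.0026 relative to distant counts, and was called with an exclusion of 20 kb (0.31). C-E-X at 96 h over 24 h was called in 30 kb windows (0.22). The triples had enough counts only in 30 kb windows: E-P-C had 0.47 at 24 h over 0 h, 1.12 at 96 h over 0 h and -1.18 after CTCF depletion, and C-E-P had 2.03 at 96 h over 0 h and 1.40 at 96 h over 24 h. Of these, 1.12 and -1.18 for E-P-C and 2.03 and 1.40 for C-E-P passed the threshold. Untested triple ratios turned in 7.5 kb windows (E-P-C 0.15 at 24 h over 0 h, C-E-P -1.005 at 96 h over 24 h), and after CTCF depletion E-P-C turned to 0.72 relative to distant counts, 0.0895 with each pair counted once and 0.49 without neighbouring fragments. Of listed elements seen from the enhancer, 6 were called at 24 h over 0 h and 7 at 96 h over 24 h; with counts divided by 3, 2 and 2 were, and in 12 kb windows 11 were at 96 h over 24 h. From the boundary, 2, 6 and 6 were called at 24 h over 0 h, 96 h over 0 h and 96 h over 24 h; with counts divided by 3, 1, 2 and 0 were, and in 12 kb windows 6 were at 24 h over 0 h and 12 at 96 h over 24 h. The enhancer's distant share at 96 h over 0 h, 0.06, turned to -0.0161 with an exclusion of 20 kb and to -0.13 without neighbouring fragments. The domain share with each pair counted once, an alternative chosen after seeing the data, was 26.1%, 34.2% and 47.6% at 0, 24 and 96 h, and 31.2% after CTCF depletion.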
